A study of Caenorhabditis elegans with 6 samples.

Results

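The synaptonemal complex central region genes syp-1 to syp-6 and the Skp1-related genes skr-1 and skr-2 are 8 genes that encode structural parts of one meiotic chromosome structure in Caenorhabditis elegans. They were taken by gene symbol, matched to the identifiers of the count tables through the WBcel235 annotation (Ensembl release 115), and all 8 were found among 46934 gene identifiers. RNA had been sequenced from 3 libraries of sin-3(tm1276) gonads and 3 libraries of wild-type gonads, and the question was how the germline transcriptome differs when the gene for SIN-3, the scaffold of a histone deacetylase complex, carries this allele. Per the labels, each library came from 5 to 7 young adults, collected 12 h after L4, whose gonads were cut at the bend so that only the distal arm was used. Such an arm holds mitotic germ cells and germ cells in early meiotic prophase with the somatic sheath around them. Whether the 3 libraries of each genotype stem from independent cultures is not stated in the labels. The p-values therefore cover the spread among these 6 libraries, part of which may be technical.

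The synaptonemal complex is a ladder-like protein structure that assembles between paired homologous chromosomes in meiotic prophase and is needed for normal crossing over. In C. elegans the SYP proteins make up its central region, and most of them depend on one another to assemble on chromosomes. The skr-1 and skr-2 products are adaptors of SCF ubiquitin ligases, where they join the cullin encoded by cul-1 to F-box proteins, and they are also structural subunits of the central region.

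Reads assigned to genes ranged from 24491014 to 30634455 per library. The targeted gene sin-3 was at 179.5, 175.5 and 184.1 CPM (reads per 1000000 assigned reads, after TMM scaling) in the sin-3(tm1276) libraries, against 366.8, 358.5 and 369.4 CPM in the wild-type libraries, so the genotypes were apart at this gene. Germ cell markers were abundant in all libraries, with summed levels of 5805 to 5823 CPM in sin-3(tm1276) and 6063 to 6411 CPM in wild-type, and 2 of 14 rose and 6 fell. Oocyte markers summed to 2883 to 3176 CPM in sin-3(tm1276) and 3866 to 4056 CPM in wild-type, with 4 of 6 lower and 0 higher by the same edgeR test. The share called lower was 42.9% of the germ cell markers and 66.7% of the oocyte markers. Over all genes tested, 31.3% were called higher and 30.7% lower. Among autosomal protein-coding genes that averaged 64 CPM or more, 21.7% were called higher and 52.6% lower. Of 15 somatic gonad markers 11 were tested, and 9 of these rose and 0 fell, at a median log2 fold change of 1.18. Their sums were 2144 to 2282 CPM in sin-3(tm1276) and 1751 to 2063 CPM in wild-type, most of which came from the uncalled filamin gene fln-1, at 1597 ± 44.6 CPM in sin-3(tm1276) and 1621 ± 141 CPM in wild-type. The collagen gene emb-9 was at 174.2 ± 7.80 CPM in sin-3(tm1276) and 73.2 ± 2.50 CPM in wild-type (SD, n = 3), and nhr-67 had no read in any library. Of 8 sperm markers only 2 passed the filter on low counts, at sums over the 8 of 11.1 to 14.3 CPM in sin-3(tm1276) and 11.4 to 12.3 CPM in wild-type. Sums of muscle markers (123.2 to 203.1 CPM in sin-3(tm1276), 142.3 to 269.5 CPM in wild-type), intestine markers (219.5 to 280.9 CPM in sin-3(tm1276), 215.2 to 553.7 CPM in wild-type) and hypodermis markers (47.8 to 60.8 CPM in sin-3(tm1276), 42.7 to 84.2 CPM in wild-type) overlapped between genotypes, while neuron markers summed to 50.9 to 56.7 CPM in sin-3(tm1276) and 75.45 to 80.6 CPM in wild-type. Within the muscle list 2 of 7 fell, the pharyngeal myosin gene myo-1, at 1.59 ± 0.35 CPM in sin-3(tm1276) and 13.2 ± 7.01 CPM in wild-type, and its relative myo-2, at 1.28 ± 0.34 CPM in sin-3(tm1276) and 8.80 ± 4.54 CPM in wild-type (SD, n = 3). Among 6 tested intestine markers 1 rose, ifb-2, and among 5 tested neuron markers snb-1, egl-3 and egl-21 fell and unc-64 rose, while neither tested hypodermis marker was called. Most of the neuron sum came from snb-1, at 43.8 ± 1.42 CPM in sin-3(tm1276) and 67.9 ± 2.57 CPM in wild-type (SD, n = 3). These single markers were named after their values were seen. The part of these cell type differences in the results on the 8 genes was not tested, and in whole distal arms fewer cells of a type and less RNA per cell cannot be told apart.

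In sin-3(tm1276) skr-1, skr-2, syp-1 and syp-3 fell, with log2 fold changes from -0.97 for skr-1 to -0.20 for syp-3, and the remaining 4 syp genes were not called. All 8 passed the filter on low counts, and edgeR's quasi-likelihood test with Benjamini-Hochberg adjustment over all 9787 genes tested called 4 of them lower and 0 higher at the 0.05 threshold. At an unadjusted p under 0.05 the count higher was also 0, as it was at the adjusted threshold in DESeq2 and in limma-voom. Across all genes tested, 62.0% were called, 31.3% higher and 30.7% lower. Among 3096 protein-coding genes of the autosomes that averaged 64 CPM or more, a set that holds 7 of the 8 members (all but syp-3), 21.7% were called higher and 52.6% lower, so 4 of 8 lower is close to the share for well-expressed genes. The median log2 fold change was -0.13 over the 8 genes, against 0.028 over all genes tested and -0.12 over that set. Scaling by library totals in place of TMM moved all genes up by a median of 0.17, and then 3 of the 8 (syp-4, syp-5 and syp-6) were called higher and 3 (syp-1, skr-1 and skr-2) lower, against 45.4% higher and 19.1% lower of all genes. Scaling on autosomal genes alone called 1 higher, syp-6, and the same 4 lower, against 34.4% higher and 28.0% lower of all genes.

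**Figure D1:**
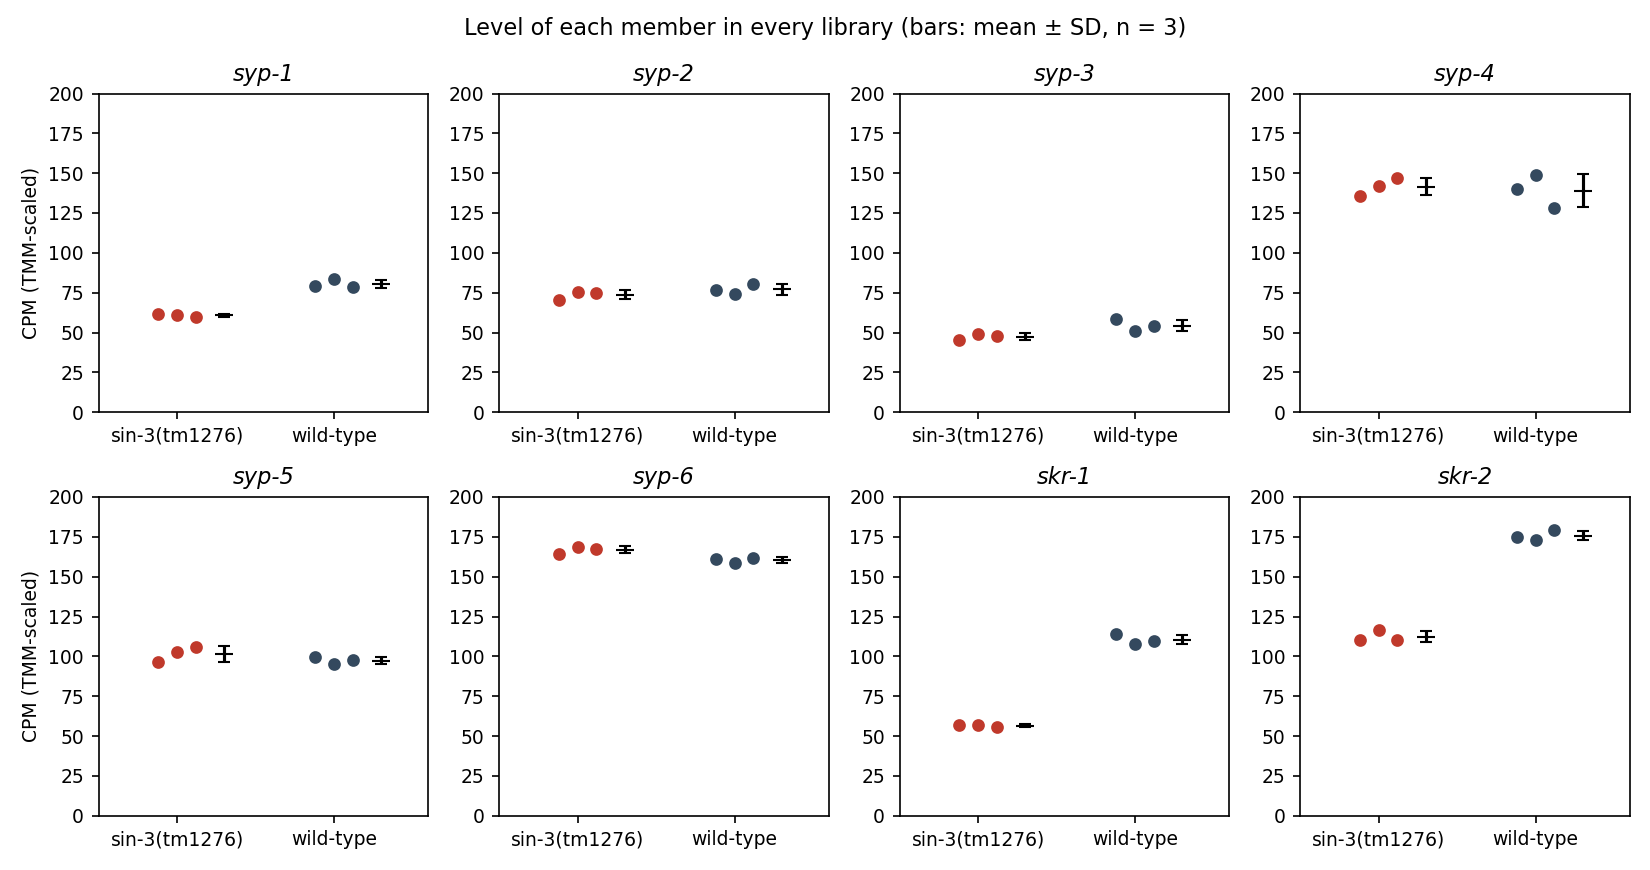
TMM-scaled CPM (y axis, from 0) of each gene in the 3 sin-3(tm1276) libraries (left, red) and the 3 wild-type libraries (right, blue), with the mean ± SD beside them. The points of skr-1, skr-2 and syp-1 are well apart between genotypes, those of syp-3 narrowly so, and those of syp-2, syp-4 and syp-5 overlap.

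The gene skr-1 (WBGene00004807) lies on chromosome I at 9471550 to 9472641 in WBcel235, in 3 exons that encode 176 residues. It was at 57.2, 56.7 and 55.5 CPM in the sin-3(tm1276) libraries, against 113.9, 108.0 and 109.6 CPM in the wild-type libraries. Every mutant library was below every wild-type library by a gap far wider than the spread within either genotype. The log2 fold change was -0.97 ± 0.039 (SE), or 1.96-fold lower, with an adjusted p of 1.6e-10 in edgeR. In absolute size this exceeded the change of 87.2% of the genes tested. The call held in all 14 alternative fits, with log2 fold changes from -1.05 to -0.80.

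Its paralogue skr-2 (WBGene00004808) lies just upstream on the same strand, at 9469654 to 9470637, separated from skr-1 by 912 bases, and encodes 174 residues, also in 3 exons. Its level was 110.5, 116.3 and 110.1 CPM in the sin-3(tm1276) libraries, against 175.2, 173.1 and 179.0 CPM in the wild-type libraries. The genotypes did not overlap here either. The log2 fold change was -0.65 ± 0.035 (SE), or 1.56-fold lower, with an adjusted p of 2.5e-09 in edgeR, and the alternatives ranged from -0.71 to -0.48 with the call kept in each. As close paralogues the pair may share reads that align to both. Such reads were counted apart from genes and made up 5.70% ± 0.23 of all counted reads in sin-3(tm1276) and 7.39% ± 0.62 in wild-type (SD, n = 3), and how many of them belong to the skr genes was not tested.

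Within a library the ratio of skr-1 to skr-2 needs no scaling between libraries. It was 0.518, 0.487 and 0.504 in sin-3(tm1276), against 0.650, 0.624 and 0.6125 in wild-type, so skr-1 was the less abundant of the pair in all 6 libraries and more so in the mutant. On the log2 scale the ratio averaged -0.99 ± 0.044 in sin-3(tm1276) and -0.67 ± 0.044 in wild-type (SD, n = 3). The difference was -0.32, and the two-sided exact permutation test gave p = 0.1, below which 3 libraries against 3 cannot go. It stayed between -0.34 and -0.30 with any 1 library left out.

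The summed levels of the skr genes differed by more between genotypes than those of the syp genes. The summed level of syp-1 to syp-6 was 591.9 ± 15.6 CPM in sin-3(tm1276) and 608.9 ± 7.18 CPM in wild-type, whereas skr-1 and skr-2 together were at 168.8 ± 3.81 CPM in sin-3(tm1276) and 286.2 ± 4.52 CPM in wild-type (SD, n = 3). The ratio of skr reads to syp reads within a library was 0.292, 0.289 and 0.275 in sin-3(tm1276), against 0.470, 0.460 and 0.480 in wild-type, with no overlap. The log2 difference of this ratio was -0.72 and its two-sided exact permutation p was 0.1, again the smallest possible.

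**Figure D2:**
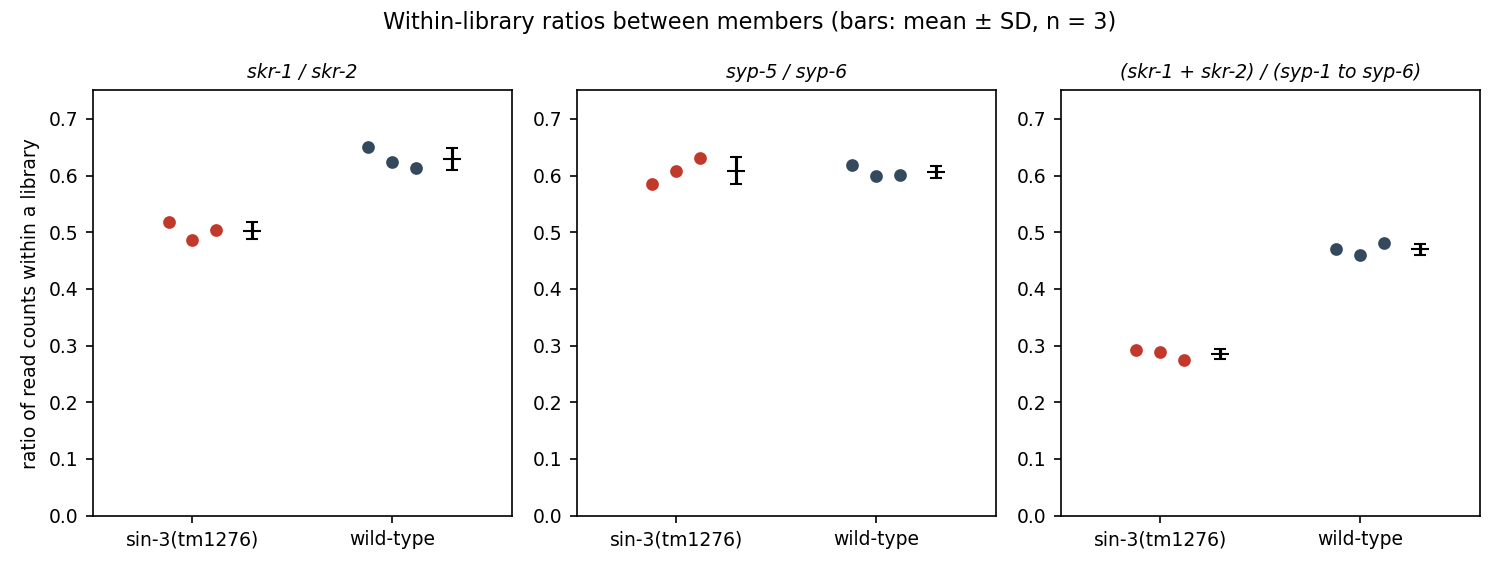
Ratio of read counts within each library (y axis, from 0) for skr-1 over skr-2, syp-5 over syp-6 and the skr sum over the syp sum, in sin-3(tm1276) (left, red) and wild-type (right, blue), with the mean ± SD of 3 libraries. The outer panels separate the genotypes and the middle panel does not.

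Among the syp genes, syp-1 showed the clearest difference. This gene (WBGene00006375, chromosome V, 16404274 to 16407701, 6 exons) encodes a coiled-coil protein of 489 residues that reaches from the chromosome axis toward the middle of the central region. Its level was 61.7, 61.2 and 59.9 CPM in the sin-3(tm1276) libraries, against 79.4, 83.4 and 78.7 CPM in the wild-type libraries. All mutant values lay below all wild-type values. The log2 fold change was -0.40 ± 0.041 (SE), or 1.32-fold lower, with an adjusted p of 1.3e-06 in edgeR. The call held under every alternative, from -0.53 to -0.24. Over 1075 bases the gene's annotated body overlaps that of F13A7.14 on the same strand, which was at 24.9 ± 1.55 CPM in sin-3(tm1276) and 26.2 ± 0.89 CPM in wild-type (SD, n = 3) and was not called. It was called lower, at -0.19 with an adjusted p of 0.026 in edgeR, when a gene length offset was added.

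A smaller difference was found for syp-3 (WBGene00006377, chromosome I, 8663045 to 8664445), whose product of 224 residues is another central region protein. Its level was 45.3, 49.3 and 47.6 CPM in the sin-3(tm1276) libraries, against 58.2, 50.8 and 54.1 CPM in the wild-type libraries. The genotypes did not overlap, though the highest mutant library, at 49.3 CPM, was close to the lowest wild-type library, at 50.8 CPM. The log2 fold change was -0.20 ± 0.057 (SE), with an adjusted p of 0.0077 in edgeR, and it was -0.031 with an adjusted p of 0.64 when libraries were scaled by their totals. On the opposite strand syp-3 overlaps mrt-1 by 61 bases, a gene needed for telomerase activity, which was at 44.3 ± 0.42 CPM in sin-3(tm1276) and 90.3 ± 1.28 CPM in wild-type (SD, n = 3). Its log2 fold change was -1.03 ± 0.040 (SE; adjusted p of 1.1e-10 in edgeR). The strand setting of the authors' counting is not given in the sources used here. As reads over several genes were counted apart from genes, syp-3 and mrt-1 may have lost reads where they overlap. The same holds for sin-3, pch-2, him-14, fkb-6, mcm-4, cyn-15, prom-1, dhs-24 and brd-1, which overlap a gene on the other strand, while cul-2, coh-4, gldi-6, crml-1, cox-16, zim-1 and zim-2 overlap one on their own strand.

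No difference was called for syp-2 (WBGene00006376, chromosome V, 5536487 to 5537717), which encodes a small central region protein of 213 residues. Its level was 70.7, 75.6 and 74.98 CPM in the sin-3(tm1276) libraries, against 76.9, 74.0 and 80.8 CPM in the wild-type libraries, and the genotypes overlapped. The log2 fold change was -0.065 ± 0.045 (SE), with an adjusted p of 0.22 in edgeR. It was called lower, at -0.17 with an adjusted p of 0.0047, when a gene length offset was added.

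Another central region gene, syp-4 (WBGene00019247, chromosome I, 6847511 to 6849923), encodes 605 residues. It had 135.9, 142.1 and 146.8 CPM in the sin-3(tm1276) libraries, against 139.8, 148.8 and 128.3 CPM in the wild-type libraries. The wild-type libraries were the more spread and enclosed the mutant ones. The log2 fold change was 0.027 ± 0.051 (SE), with an adjusted p of 0.66 in edgeR. Scaled by library totals it was 0.19 with an adjusted p of 0.0038.

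The paralogues syp-5 and syp-6 act in large part redundantly in the central region. The gene syp-5 (WBGene00021832, chromosome I, 3193528 to 3198838, 547 residues) was at 96.1, 102.6 and 105.7 CPM in the sin-3(tm1276) libraries, against 99.7, 95.0 and 97.4 CPM in the wild-type libraries. The genotypes overlapped, and the log2 fold change was 0.061 ± 0.042 (SE; adjusted p of 0.22 in edgeR). The gene syp-6 (WBGene00019002, chromosome I, 6566125 to 6568954, 694 residues) was at 164.3, 168.6 and 167.3 CPM in the sin-3(tm1276) libraries, against 161.2, 158.5 and 161.9 CPM in the wild-type libraries. Every mutant library was above every wild-type library, yet the log2 fold change of 0.055 ± 0.032 (SE) was not called (adjusted p of 0.15 in edgeR). Non-overlap of the genotypes is common in these data, at 67.8% of genes tested, 34.8% with the mutant above and 33.0% with the mutant below. Scaled by library totals, syp-5 and syp-6 were called higher at 0.23 and 0.22 (adjusted p of 0.00024 and 3.6e-05), and on autosomal genes alone syp-6 was at 0.092 (adjusted p of 0.021).

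No difference in the balance of this pair was detected. The ratio of syp-5 to syp-6 was 0.585, 0.609 and 0.632 in sin-3(tm1276), against 0.6185, 0.599 and 0.602 in wild-type, with the mutant libraries on both sides of the wild-type ones. On the log2 scale it averaged -0.72 ± 0.055 in sin-3(tm1276) and -0.72 ± 0.025 in wild-type (SD, n = 3), a difference of 0.0044 with a two-sided exact permutation p of 1.

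**Figure D3:**
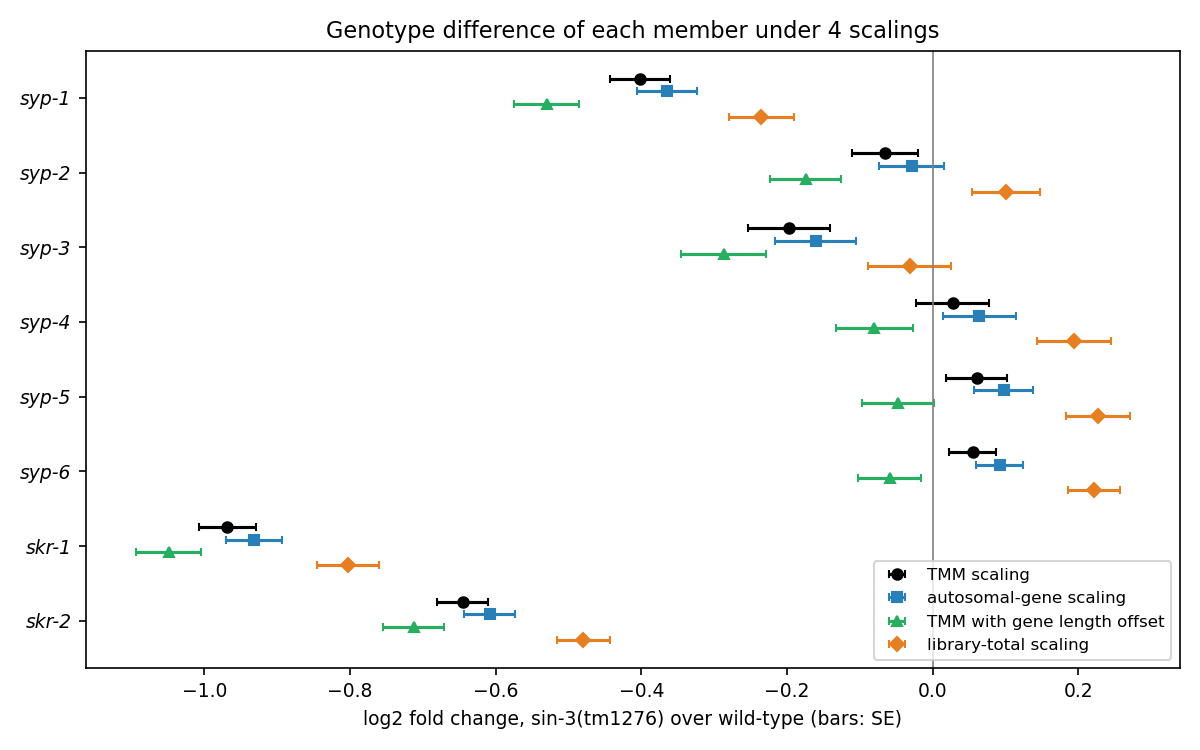
Log2 fold change of sin-3(tm1276) over wild-type (x axis, bars are SE) for each gene under TMM scaling, scaling on autosomal genes, TMM with a gene length offset, and scaling by library totals. The skr genes, syp-1 and syp-3 stay below 0 in all 4 fits. Values of syp-4, syp-5 and syp-6 are above 0 under the 3 scalings and below 0 with the length offset, and syp-2 is above 0 only under library totals.

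Shares within the syp group also need no scaling between libraries, but they sum to a whole, so a lower share of one gene raises the others and the shares are no separate measure of each gene. Of all syp reads, syp-1 held 10.3% ± 0.41 in sin-3(tm1276) and 13.2% ± 0.39 in wild-type, and syp-3 held 8.004% ± 0.19 in sin-3(tm1276) and 8.93% ± 0.57 in wild-type. The larger syp-6 share was 28.2% ± 0.42 in sin-3(tm1276) and 26.4% ± 0.51 in wild-type, and that of syp-5 was 17.1% ± 0.40 in sin-3(tm1276) and 15.99% ± 0.37 in wild-type. Shares of syp-2 (12.5% ± 0.15 in sin-3(tm1276), 12.7% ± 0.67 in wild-type) and syp-4 (23.9% ± 0.39 in sin-3(tm1276), 22.8% ± 1.52 in wild-type) differed by less than their spread in wild-type (SD, n = 3 for all shares).

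Levels between genes were compared per kilobase of merged exons. In wild-type libraries skr-2 was highest, at 231.9 ± 3.97 CPM per kb, followed by skr-1 at 128.0 ± 3.52. Then came syp-2, syp-6 and syp-4 at 70.7 ± 3.09, 69.2 ± 0.78 and 68.0 ± 5.03 CPM per kb, whose ranges overlapped, and syp-3 and syp-5 at 58.2 ± 3.94 and 54.6 ± 1.32 CPM per kb, whose ranges also overlapped. The lowest was syp-1, at 26.4 ± 0.83 CPM per kb (SD, n = 3). Reads over several genes were counted apart from genes, so syp-1 may have lost reads to its overlap with F13A7.14. Its exons span 3053 bases, of which 1467 are coding, and per kilobase of coding sequence it was still lowest, at 54.9 ± 1.72. Wild-type levels per kb placed syp-1 at percentile 53.1, syp-2 to syp-6 between percentiles 72.4 and 80.8, skr-1 at percentile 92.4 and skr-2 at percentile 96.6 among 9176 protein-coding genes tested.

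In sin-3(tm1276) libraries skr-2 remained the highest of the 8, at 148.2 ± 4.60 CPM per kb. There skr-1, at 65.4 ± 1.03 CPM per kb, ranked 5 of 8, where in wild-type it ranked 2. It was below syp-6 (71.8 ± 0.95), syp-4 (69.3 ± 2.67) and syp-2 (67.5 ± 2.44), though the ranges of skr-1 and syp-2 overlapped, as did those of each neighbouring pair above them among the syp genes. The order ended with syp-5 (57.0 ± 2.75), syp-3 (50.7 ± 2.16) and syp-1 (20.0 ± 0.30 CPM per kb; SD, n = 3). Per kilobase of longest coding sequence skr-1 ranked 3 of 8 in sin-3(tm1276) and again 2 in wild-type.

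Per the authors' deposited table, the log2 fold changes were -0.9998 for skr-1, -0.68 for skr-2, -0.43 for syp-1 and -0.22 for syp-3, each with an adjusted p under the threshold of 0.05, the largest of them 0.0047. In the authors' deposited table syp-2, syp-4, syp-5 and syp-6 had log2 fold changes of -0.098, -0.0064, 0.026 and 0.021 with adjusted p of 0.13, 0.95, 0.69 and 0.72.

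By position, 6 of the 8 genes lie on chromosome I and 2 on chromosome V. The tested genes of chromosome I as a whole had a median log2 fold change of -0.019, with 538 higher and 638 lower of 1875. These are 28.7% and 34.0%, beside 31.3% and 30.7% of all genes tested. Immediate neighbours did not all move with the members. The syp-4 neighbour rpb-5, which encodes an RNA polymerase subunit, rose by 0.31 ± 0.034 on the log2 scale (SE; adjusted p of 2.1e-06 in edgeR), and F39H2.3 beside syp-3 and Y54E10A.11 beside syp-5 rose by 0.29 ± 0.060 and 0.17 ± 0.033. The call of Y54E10A.11 ended with the gene length offset, at 0.032 with an adjusted p of 0.57. On either side of syp-6, the katanin subunit gene mei-2 fell by 0.14 ± 0.035 and the phosphoglycerate mutase gene ipgm-1 by 0.13 ± 0.032 under TMM scaling, and scaling by library totals gave them log2 fold changes of 0.023 and 0.035. Downstream of skr-1, calm-1 was at 3.02 ± 0.33 CPM in sin-3(tm1276) and 2.41 ± 0.43 CPM in wild-type (SD, n = 3) and was called, as higher, only under scaling by library totals (0.49, adjusted p of 0.036 in edgeR). Also uncalled were cox-16 beside syp-2 and F26D2.3 beside syp-1, at log2 fold changes of -0.063 ± 0.17 and 0.15 ± 0.30 (SE). The remaining neighbours, sre-36, cft-1, flp-22, H27M09.7, WBGene00021833 and twk-29, had at most 17 reads in any library.

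Profiles over the 6 libraries were compared by the Euclidean distance of log2 CPM centred on each gene's mean, among 5556 named protein-coding genes tested. Nearest to skr-1 were mrt-1 (distance 0.0847) and the CARMIL homologue gene crml-1 (0.0866), which was at 127.7 ± 2.02 CPM in sin-3(tm1276) and 249.7 ± 4.63 CPM in wild-type. Nearest to skr-2 were the choline kinase gene cka-1 (0.0478) and the replicative helicase subunit gene mcm-4 (0.0595). For syp-1 they were the nuclear pore gene npp-5 (0.0428) and the ribosomal protein gene rpl-10 (0.0474), and for syp-3 the F-box gene prom-1 (0.0615) and tgn-38 (0.0694). For syp-5, the histone acetyltransferase gene mys-4 (0.034) and the meiotic axis gene htp-3 (0.0441) were nearest. The 2 nearest were dhs-24 (0.0241) and cyn-15 (0.0397) for syp-2, gpr-2 (0.0442) and gldi-6 (0.0647) for syp-4, and uda-1 (0.0315) and bath-5 (0.0351) for syp-6. Scaled by library totals, prom-1 and tgn-38 lost the calls they had under TMM scaling (adjusted p of 0.53 and 0.38 in edgeR), as did syp-3. Both were picked for profiles close to that of syp-3, so this likeness follows from the choice.

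Genes of the structures on which the central region acts were called in both directions. Of 10 tested chromosome axis and cohesin genes, 4 rose and 3 fell, or 40% and 30%, with a median log2 fold change of 0.040. Of all genes tested, 31.3% were called higher and 30.7% lower. Among the well-expressed autosomal genes these shares were 21.7% and 52.6%, at a median of -0.12. That set does not hold all of the 10 genes. The HORMA axis genes htp-2 and htp-1 rose by 0.41 ± 0.041 and 0.28 ± 0.039 and the meiotic kleisin gene coh-4 rose by 0.41 ± 0.049, while the cohesin subunit gene scc-3 fell by 0.37 ± 0.031 (log2, SE). Of these, htp-2 was at 81.3 ± 2.71 CPM in sin-3(tm1276) and 61.0 ± 0.36 CPM in wild-type (SD, n = 3). Close relatives such as htp-1 and htp-2, or coh-3 and coh-4, may share reads. Scaled by library totals, 7 rose and 1 fell, and the median was 0.21.

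Of 23 genes that regulate pairing and synapsis, 13 fell and 5 rose under TMM scaling, at a median of -0.16, whereas 6 fell and 9 rose under scaling by library totals. The TMM shares, 56.5% lower and 21.7% higher, are near the 52.6% and 21.7% of the well-expressed autosomal genes, whose median was -0.12. Without sin-3(tm1276) replicate 2, sin-3(tm1276) replicate 3 or wild-type replicate 3 the number that rose was 3. The largest difference was that of pch-2, which encodes a remodelling ATPase acting on the axis, at 34.7 ± 2.57 CPM in sin-3(tm1276) and 98.3 ± 6.50 CPM in wild-type (SD, n = 3), which is -1.50 ± 0.061 on the log2 scale (SE). The genes of the pairing centre proteins zim-2 and zim-1 fell by 0.40 ± 0.040 and 0.32 ± 0.038, and the FKBP gene fkb-6 by 0.32 ± 0.038 (log2, SE).

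Of 11 crossover factors that localise to the synaptonemal complex, 7 fell and 2 rose, at a median of -0.21. These are 63.6% and 18.2% of the list, beside 52.6% lower and 21.7% higher among well-expressed autosomal genes and 30.7% and 31.3% among all genes tested. Several of the 11 averaged under 64 CPM and lie outside that well-expressed set, such as zhp-1, at 21.2 CPM in sin-3(tm1276) and 33.8 CPM in wild-type. The set is therefore not matched to this list in level. The MutS homologue gene him-14 was at 47.9 ± 3.94 CPM in sin-3(tm1276) and 98.2 ± 0.71 CPM in wild-type (SD, n = 3), and its partner msh-5 fell by 0.32 ± 0.032 on the log2 scale. The RING finger gene zhp-1 and the BRCA1 partner gene brd-1 fell by 0.67 ± 0.062 and 0.54 ± 0.040 (log2, SE). With library totals as the scale, 5 fell and 2 rose.

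Most of the remaining skr genes were at low levels, and those called were mostly higher in the mutant. Of 18 in the files, 13 passed the filter on low counts, of which 7 rose and 1 fell under both TMM scaling and scaling by library totals, at medians of 0.49 and 0.66. Under TMM scaling 53.8% of the 13 were thus higher, beside 31.3% of all genes tested. The share among genes of similarly low level was not computed. Of those that rose, skr-19 and skr-20 lie on chromosome X. Genes as low in wild-type as skr-10 and skr-13 (0.31 ± 0.19 CPM in wild-type) could pass the filter on low counts only through their mutant libraries. That may have raised this share, by an amount not tested. Among those that rose, skr-10 was at 1.24 ± 0.32 CPM in sin-3(tm1276) and 0.20 ± 0.11 CPM in wild-type, skr-20 at 1.38 ± 0.27 CPM in sin-3(tm1276) and 0.65 ± 0.13 CPM in wild-type, and skr-3 at 4.44 ± 0.59 CPM in sin-3(tm1276) and 2.82 ± 0.60 CPM in wild-type (SD, n = 3). A library with 0 counts of a gene allows up to 3 counts, or 0.0979 to 0.122 CPM, by counting error only. Without sin-3(tm1276) replicate 2 the count higher was 3 in place of 7, and it was also 3 in DESeq2 and 4 without wild-type replicate 2 or 3. The one that fell, skr-17, was better expressed, at 38.6 ± 1.50 CPM in sin-3(tm1276) and 52.0 ± 1.35 CPM in wild-type (SD, n = 3), with a log2 fold change of -0.43 ± 0.051 (SE; adjusted p of 5.3e-06 in edgeR).

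The cullin and SCF list holds cullins, RING and F-box genes and regulators of cullin ligases, only some of which act with Skp1-related adaptors. Of its 27 genes 16 fell and 8 rose under TMM scaling, at a median of -0.19, whereas 8 fell and 10 rose under scaling by library totals. The TMM shares were 59.3% lower and 29.6% higher, beside 52.6% and 21.7% of the well-expressed autosomal genes. The cullin gene cul-1, whose product binds Skp1-related adaptors, was at 73.5 ± 2.00 CPM in sin-3(tm1276) and 135.5 ± 0.92 CPM in wild-type (SD, n = 3), which is -0.88 ± 0.036 on the log2 scale (SE; adjusted p of 1.8e-10 in edgeR). The cullin genes cul-5 and cul-2, which work with other adaptors, fell by 0.86 ± 0.040 and 0.54 ± 0.033, and the F-box gene skpt-1 by 0.50 ± 0.037 (log2, SE). All 4 of these genes were lower in all mutant libraries than in any wild-type library. They were named for the smallest p of the list, so this follows from the choice. Over all genes tested, 33.0% had the mutant below without overlap.

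**Figure D4:**
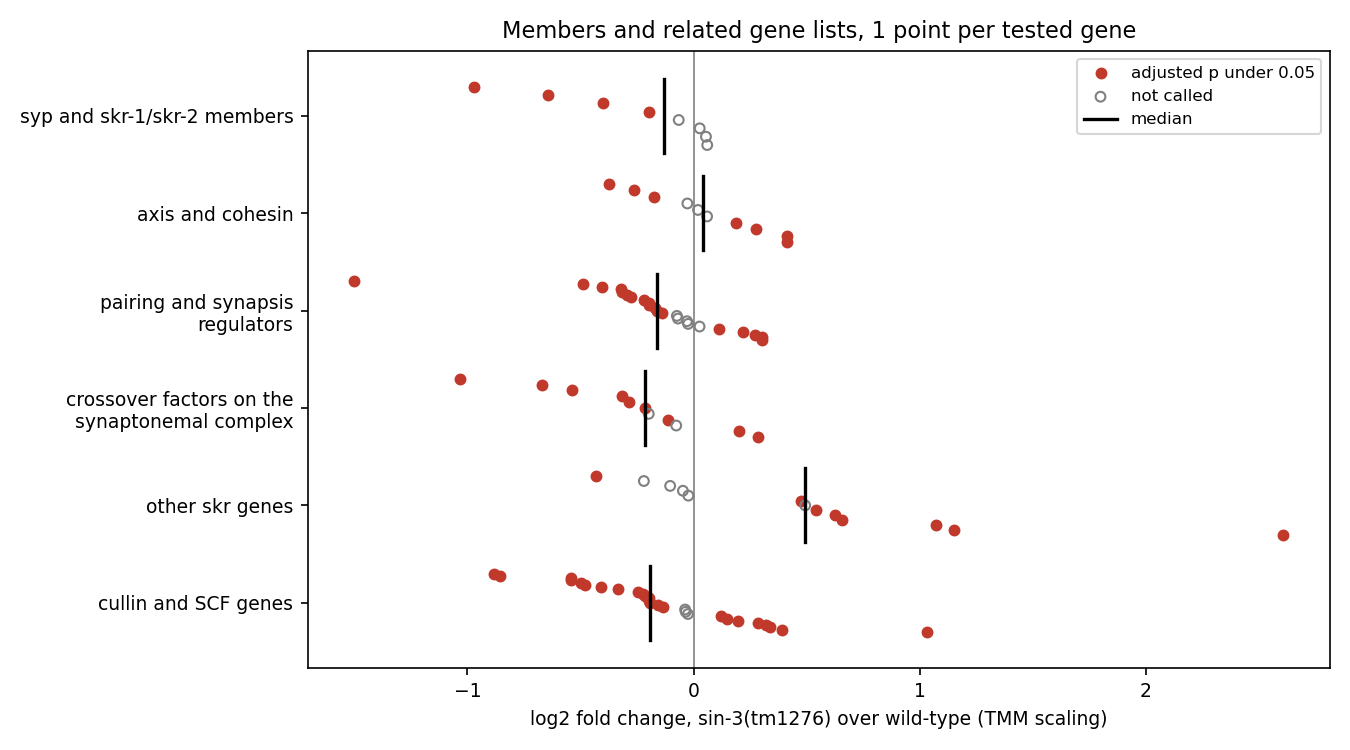
Log2 fold change of sin-3(tm1276) over wild-type under TMM scaling (x axis) for each tested gene of the 8 members and of 5 related lists, with filled points for an adjusted p under 0.05 in edgeR, open points for genes not called, and a bar at each list's median. The median is -0.13 for the members and 0.49 for the remaining skr genes, and the cullin and SCF list runs from cul-1 at -0.88 to cul-6 at 1.03. The level of cul-6 is low, at 1.64 ± 0.17 CPM in sin-3(tm1276) and 0.80 ± 0.18 CPM in wild-type (SD, n = 3), and its SE is 0.26.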

How the data were processed

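RNA of distal gonad arms was measured in 6 libraries. The authors deposited raw counts, whole reads assigned to each gene of a library. The submitters' processing notes name STAR 2.7.3a, HTSeq 0.7.2, fastp 0.20.1 and DESeq2 1.36.0 without saying what each did. Genome build, annotation and counting strand: not given in the sources used here. The authors' deposited table of their comparison gives a mean signal, log2 fold changes and p-values, per the file headers. Lines that name no gene, 8.98% ± 0.24 of counted reads in sin-3(tm1276) and 10.4% ± 0.84 in wild-type (SD, n = 3), were left out of totals and tests. Of 46934 identifiers 46923 matched the annotation, and coordinates are those of WBcel235 for the identifier.

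Counts were fitted over the whole table in R 4.3.3 with edgeR 4.0.16 (filterByExpr, TMM, robust quasi-likelihood test on genotype, Benjamini-Hochberg adjustment over 9787 genes, threshold 0.05). The SE is the absolute log2 fold change over the square root of F. The coefficient of variation between libraries of a genotype was 5.52%. Counts of the 8 genes ranged from 1175 to 5371 per library, a counting error of 1.36% to 2.92%. Ratios within a library were compared by two-sided exact permutation tests. Alternatives used DESeq2 1.42.0, limma-voom (limma 3.58.1), other scalings, no filter, a replicate block, a gene length offset, and each library left out.

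The members and lists were chosen with earlier results of these data known. Genes named were sin-3, the members, the 4 smallest p of each related list, overlapping and nearest genes, and the 2 most similar profiles per member. The symbols smc-1 and skr-11 matched no identifier and were not used here. Libraries of a genotype differed by a chi-square of 12.5 to 18.8 per degree of freedom, above sampling noise, so none was counted as a copy. On simulated data for the comparison of sin-3(tm1276) with wild-type (9319 genes tested) edgeR recovered 84.1% and 86.0% of genes lowered and raised by 1 on the log2 scale and 68.1% and 61.2% of those by 0.5, with 7 false calls. Few genes were shifted there, with up and down balanced, whereas 62.0% of genes were called in the data. The simulation therefore does not test the choice of scaling.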

Additional observations from a re-analysis of the deposited data

How the results depend on the processing

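The results for skr-1, skr-2 and syp-1 kept their direction and their call in all 14 alternative fits. The call of syp-3 ended only under scaling by library totals (-0.031). That scaling also turned syp-2 to 0.10, brought calls for syp-4 (0.19), syp-5 (0.23) and syp-6 (0.22), and changed the split over all genes to 4443 higher and 1866 lower, from 3065 and 3003. Of the 8 genes 3 were then higher, and the numbers higher and lower were 7 and 1 for the axis list, 9 and 6 for the pairing list and 10 and 8 for the cullin list. It also turned dhs-24 to 0.11, cyn-15 to 0.089, F13A7.14 to 0.091, cox-16 to 0.10, mei-2 to 0.023 and ipgm-1 to 0.035. Under library totals dhs-24, gpr-2 (0.19), mys-4 (0.21), htp-3 (0.23), uda-1 (0.22), bath-5 (0.20) and calm-1 (0.49) were called higher. The calls of mei-2, ipgm-1, prom-1 (-0.032) and tgn-38 (-0.055) ended there. Scaling on autosomal genes added a call for syp-6 (0.092), so 1 of the 8 was higher, and calls for htp-3 (0.097) and uda-1 (0.093).

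The gene length offset changed the split over all genes to 2336 higher and 3783 lower. It brought calls for syp-2 (-0.17), F13A7.14 (-0.19), dhs-24 (-0.17) and cyn-15 (-0.19) and ended that of Y54E10A.11 (0.032). It also turned syp-4 to -0.080, syp-5 to -0.048, syp-6 to -0.059, gpr-2 to -0.087, gldi-6 to -0.080, mys-4 to -0.080, htp-3 to -0.054, uda-1 to -0.051 and bath-5 to -0.064. Then 5 axis genes were lower, 3 pairing genes higher, 0 crossover genes higher and 4 cullin genes higher. With the replicate block and the length offset together the values were -0.17 for syp-2, -0.080 for syp-4, -0.049 for syp-5, -0.059 for syp-6, -0.086 for gpr-2, -0.079 for gldi-6, -0.081 for mys-4, -0.055 for htp-3, -0.052 for uda-1 and -0.064 for bath-5. That fit gave the same counts for those 4 lists, with 4 of the remaining skr genes higher and 2 lower.

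Replicate numbers were taken from the labels, and libraries with the same number did not deviate together (correlations of -0.24, -0.061 and -0.089). Whether they were handled together is not stated in the labels. These correlations cannot decide it, as the deviations were taken from means of only 3 libraries. The replicate block alone left 4 of the 8 genes lower and 0 higher, with 2906 genes higher and 2935 lower in all. The log2 ratio differences of -0.32, 0.0044 and -0.72 cannot move with the block, as the replicate numbers are balanced over the genotypes. The cause of the changes with scaling was not tested.

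With 1 library left out, syp-4 ranged from -0.034 to 0.072 and the syp-5 to syp-6 log2 ratio difference from -0.023 to 0.032. The number of pairing genes higher ranged from 3 to 5, and that of the remaining skr genes higher from 3 to 7, with 3 in DESeq2. Without sin-3(tm1276) replicate 1, htp-3 was called higher (0.098). Ranges of uncalled genes whose sign changed were -0.053 to 0.073 for gpr-2, -0.048 to 0.083 for gldi-6, -0.0089 to 0.27 for F26D2.3, -0.17 to 0.066 for cox-16 and -0.45 to 0.071 for flp-22.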
